A study of Mus musculus with 12 samples.

Results

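Keratins form the intermediate filaments of epithelial cells, and 10 genes of this system were described in the day 7 thymus: Krt8, Krt18, Krt7 and Krt19, the keratins of simple and glandular epithelia; Krt5 and Krt14, the keratins of basal cells in stratified epithelia; Krt1 and Krt10, which replace them as epidermal cells differentiate; and Ivl (involucrin) and Krtdap (keratinocyte differentiation associated protein), a pair of genes of terminal differentiation. The genes were chosen by name, and each of the 10 was measured by 1 probe set that carried its symbol alone, out of 19938 genes with such a probe set. RNA came from day 7 thymic epithelium/stroma of pups of the FCG mouse model, which combines either gonadal sex with either sex chromosome complement, and was read on 12 whole-transcript mouse arrays, 2 from XY gonadal males (XYM), 4 from XX gonadal males (XXM), 3 from XY gonadal females (XYF) and 3 from XX gonadal females (XXF). All FCG pups had the C57BL/6J background. The Y chromosome of these mice lacks Sry, the testis-determining gene, and gonadal males of both kinds carry it as a transgene on an autosome, which lets the gonads vary independently of the sex chromosomes. The tissue was what stayed behind after repeated washing of the thymus to remove thymocytes, with no sort for epithelial cells. Neither the labels nor the methods say whether each array held RNA from a separate pup, and p-values here reflect only how these arrays vary, which may be technical.

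A keratin filament is built from pairs, each with 1 type II and 1 type I chain, and a chain without a partner is degraded. Krt8 (type II) pairs with Krt18 (type I), Krt5 (type II) with Krt14 (type I) and Krt1 (type II) with Krt10 (type I); Krt7 is a further type II chain of simple epithelia and Krt19 a small type I chain. In the mouse thymus the Krt8 and Krt18 pair is widely used to mark cortical epithelium and the Krt5 and Krt14 pair to mark medullary epithelium, while cells rich in Krt10 and involucrin mark late medullary cells and the Hassall-like corpuscles that resemble cornifying epidermis. Cornification is the last step of epidermal differentiation, in which involucrin and other proteins are cross-linked beneath the cell membrane into an insoluble envelope.

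The type II genes Krt5, Krt7, Krt1 and Krt8 lie on mouse chromosome 15, where the type I gene Krt18 also lies and is the protein-coding neighbour of Krt8. The other type I members, Krt10, Krt14 and Krt19, lie on chromosome 11, Ivl on chromosome 3 and Krtdap on chromosome 7. RefSeq promoter windows of the build GRCm38.p6 (300 bases, from 250 before the annotated start) were matched by symbol for 8 of the 10 members. Krt1 and Krt19 had no window in the table. The 120 bases before the start are shown for Krt8 and Krt18, the neighbours whose signals moved together over the arrays, and for Ivl and Krtdap, the genes of terminal differentiation, each 5′ to 3′ on the strand of its gene, with matches to TATAAA or TGANTCA in capitals.
Krt8, chr15:102004343-102004462, minus strand: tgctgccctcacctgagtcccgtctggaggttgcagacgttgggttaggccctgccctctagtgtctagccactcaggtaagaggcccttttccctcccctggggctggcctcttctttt
Krt18, chr15:102028096-102028215, plus strand: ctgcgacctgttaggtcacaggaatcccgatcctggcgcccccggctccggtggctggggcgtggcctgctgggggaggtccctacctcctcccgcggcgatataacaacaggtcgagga
Ivl, chr3:92573736-92573855, minus strand: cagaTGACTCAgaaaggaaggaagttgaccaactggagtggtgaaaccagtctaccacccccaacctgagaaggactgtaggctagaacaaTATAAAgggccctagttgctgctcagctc
Krtdap, chr7:30787785-30787904, plus strand: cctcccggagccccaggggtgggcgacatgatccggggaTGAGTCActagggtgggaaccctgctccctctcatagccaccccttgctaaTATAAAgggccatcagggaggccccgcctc
The letters of a TATA box (TATAAA, or TTTATA on the other strand) were found in 4 of the 8 windows, against 13.6% of all 32851 promoter windows. They stood 29 bases before the start in Ivl, 30 before it in Krtdap and 26 before it in Krt10, whereas in Krt8 the match ran over the annotated start itself and so is not in the stretch shown. The letters TGANTCA, which AP-1 factors can bind and which read the same on both strands, were in the windows of Ivl and Krtdap alone among the 8, against 7.81% of all windows. The GC box letters GGGCGG, searched on both strands, were in the Krt7 window alone, against 35.7% of all windows. The windows of Krt5, Krt14 and Krt18 held none of these letters. A match is a run of letters and not evidence of binding, and the arrays measured neither start sites nor binding.

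Every array matched its label, with Xist at 40.0 to 79.9 on XY arrays and 8505 to 9884 on XX arrays, and Sry at 2524 to 2836 in gonadal males and 415.8 to 564.5 in gonadal females. The deposited values were linear intensities, and the array medians lay between 327.5 and 345.5. Arrays carry no read depth, so their number limits the precision. A signal depends on the probes as well as on the RNA, so that levels were not ranked between genes, and each gene was set against the 1035 olfactory receptor probe sets, of genes largely silent outside the nose, whose 95th percentile was 309.5 (the reference). The first principal component of the 18915 probe sets above the reference held 32.1% of the variance and separated arrays 9 to 12 of the label numbers (scores of 6.96 to 23.12) from arrays 1 to 8 (scores of -12.99 to -2.46). Each of arrays 1 to 4, 5 to 8 and 9 to 12, called array sets here although the labels do not call them batches, held 2 arrays from males and 2 from females. Genes above the reference had a median log2 difference of -0.05 between arrays 9 to 12 and arrays 1 to 8, and olfactory receptor genes one of 0.20.

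Of the 10 members, 7 had a mean signal above the reference: Krt8, Krt18, Krt7, Krt5, Krt14, Krt1 and Ivl. Krt10, Krt19 and Krtdap did not. The 6 keratins among the 7 lay above the reference on all 12 arrays, whereas Ivl (mean 315.4, just above) passed it on 7 arrays and Krt10 (mean 285.0, just below) on 1. A signal above the reference does not by itself show expression, since Sry, which gonadal females lack, read 415.8 to 564.5 on their arrays. The signals of Krt1 (447.7 to 630.8) and Krt14 (502.3 to 666.1) overlapped that range. With the 99th percentile of the olfactory receptors (458.8) 6 members remained above, without Ivl. With the 90th (231.9) there were 8, Krt10 included, and against 175 vomeronasal receptor probe sets, at their 95th percentile of 172.9, there were 9, all but Krtdap.

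**Figure D1:**
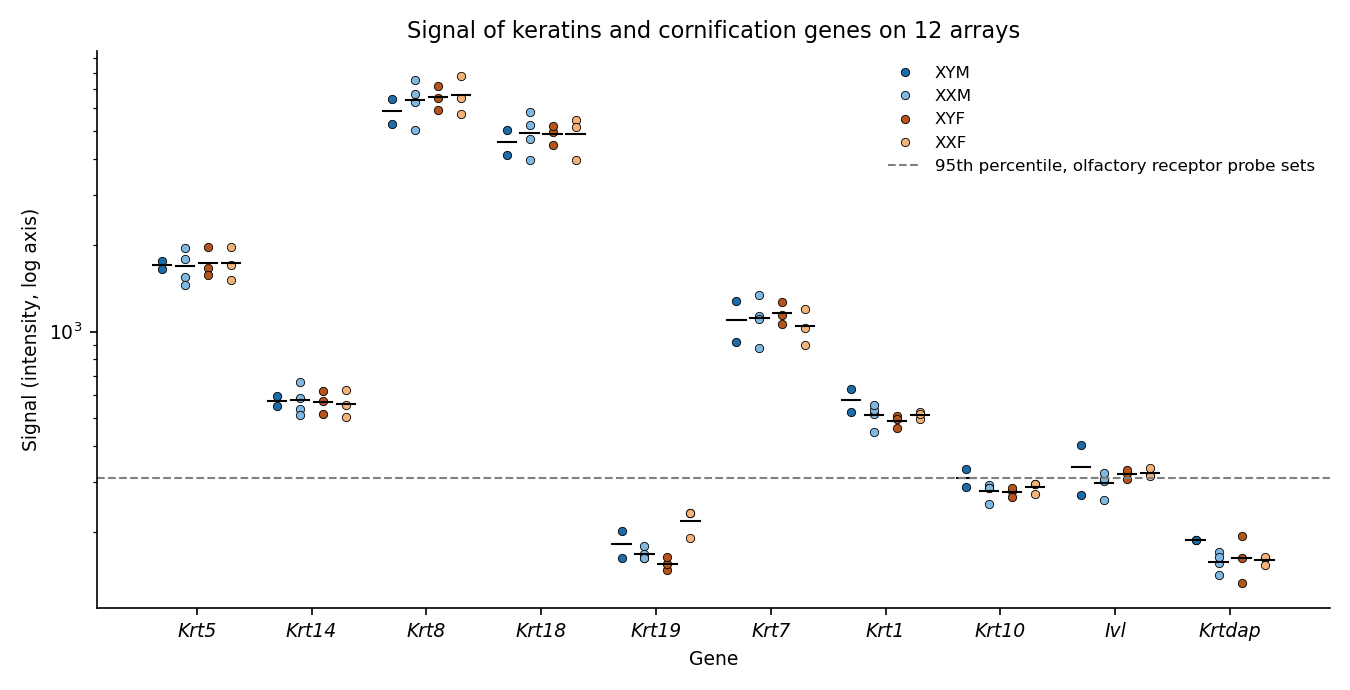
Signal of each of the 10 genes (intensity, log axis) on the 12 arrays, by genotype. Points are single arrays, short bars are genotype means, and the dashed line is the reference of 309.5; the points of the 4 genotypes overlap for Krt8, Krt18, Krt7, Krt5 and Krt14, and for Krt19 the 3 XXF arrays sit above all XXM and XYF arrays.

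Krt8, the type II keratin of simple epithelia and of cortical thymic epithelium, had signals of 6492 and 5302 on the 2 XYM arrays, 6761, 7569, 6317 and 5036 on the 4 XXM arrays, 6530, 7212.5 and 5950 on the 3 XYF arrays and 7783, 6517 and 5730 on the 3 XXF arrays. The groups overlapped, and the lowest array of each genotype was the 1 from array set 9 to 12. Krt8 averaged 6246 ± 942 in gonadal males and 6620 ± 770 in gonadal females (SD, n = 6 each), a log2 difference of -0.11 ± 0.12 (SE), with a limma p adjusted over all probe sets of 0.985. XY arrays averaged 6297 ± 714 (SD, n = 5) and XX arrays 6530 ± 968 (SD, n = 7).

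Krt18, its type I partner, followed a similar order of arrays. Its signals were 5035 and 4143 in XYM, 5241, 5822, 4683 and 3980 in XXM, 4957, 5218 and 4465 in XYF and 5486, 5163 and 3966 in XXF. It averaged 4817 ± 694 in gonadal males and 4876 ± 561 in gonadal females (SD, n = 6 each), with a log2 difference of -0.04 ± 0.11 (SE) and an adjusted limma p of 0.99. For both genes the 4 arrays numbered 9 to 12 were the 4 lowest of the 12, at a log2 difference from arrays 1 to 8 of -0.32 for Krt8 and -0.33 for Krt18. Of all genes above the reference, 2.9% had a lower such difference than Krt8 and 2.7% a lower one than Krt18.

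Krt7, a type II keratin of simple and ductal epithelia, had signals of 1275 and 923.2 in XYM, 1133, 1346, 1107 and 874.8 in XXM, 1142, 1273 and 1065 in XYF and 1200, 1031 and 899.5 in XXF. It averaged 1110 ± 186 in gonadal males and 1102 ± 132 in gonadal females (SD, n = 6 each), and the log2 difference by sex was -0.00 ± 0.12 (SE; adjusted limma p of 0.999). The log2 difference of arrays 9 to 12 from arrays 1 to 8 was -0.34, with 3 of those arrays among its 4 lowest. Krt19 is described after the comparisons, because it had the lowest p of the F test among the members.

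Krt5, the type II keratin of basal cells and of medullary thymic epithelium, had signals of 1761 and 1660.5 in XYM, 1962, 1792, 1557 and 1458 in XXM, 1981, 1671 and 1575 in XYF and 1967, 1704 and 1520.1 in XXF. Arrays 1 to 4 had the higher signals in each genotype, and the groups overlapped. Krt5 averaged 1698 ± 179.8 in gonadal males and 1736 ± 196 in gonadal females (SD, n = 6 each), with a log2 difference of -0.03 ± 0.10 (SE) and an adjusted limma p of 0.993. By array set the mean was 1918 ± 105 on arrays 1 to 4, 1681 ± 97.0 on arrays 5 to 8 and 1553 ± 86.1 on arrays 9 to 12 (SD, n = 4 each), so that the spread between array sets was wider than that between the sexes.

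Krt14, the type I partner of Krt5, had signals of 594.5 and 551.0 in XYM, 589.4, 666.1, 537.9 and 513.4 in XXM, 619.6, 515.1 and 571.4 in XYF and 624.9, 555.2 and 502.3 in XXF. No genotype stood apart. Its mean was 575.4 ± 54.1 in gonadal males and 564.7 ± 51.2 in gonadal females (SD, n = 6 each), and the log2 difference of 0.03 ± 0.09 (SE) had an adjusted limma p of 0.991.

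Among the genes of differentiation, Krt1, the type II keratin of suprabasal epidermis, had signals of 526.4 and 630.8 in XYM, 447.7, 514.9, 534.4 and 557.0 in XXM, 462.6, 507.9 and 496.1 in XYF and 524.6, 495.9 and 516.6 in XXF. Its highest array was XYM array 9, which stood above all others, and both XYM arrays lay above the 3 XYF arrays. Krt1 had a log2 difference by sex of 0.12 ± 0.07 (SE), at means of 535.2 ± 59.6 in gonadal males and 500.6 ± 21.8 in gonadal females (SD, n = 6 each), with an adjusted limma p of 0.985 and an unadjusted p of 0.132. It was 0.053 without XYM array 9 and 0.184 without XYM array 1 (unadjusted limma p of 0.511 and 0.0403).

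Krt10, the type I partner of Krt1, was close to the reference. It had signals of 286.4 and 331.8 in XYM, 292.5, 286.0, 250.8 and 284.8 in XXM, 278.4, 264.2 and 285.0 in XYF and 294.3, 272.5 and 293.7 in XXF. The only array above the reference was again XYM array 9, and both XYM arrays lay above the 3 XYF arrays. By sex the log2 difference was 0.06 ± 0.07 (SE; adjusted limma p of 0.985).

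Ivl, the envelope precursor involucrin, had signals of 270.5 and 403.6 in XYM, 258.6, 301.1, 307.0 and 321.7 in XXM, 306.4, 321.5 and 329.2 in XYF and 317.7, 313.6 and 333.7 in XXF. The gonadal females lay within the range of the gonadal males, which was wider. The highest array was XYM array 9, and arrays 9 to 12 were the 4 highest of the 12, with a log2 difference of 0.21 from arrays 1 to 8. Among olfactory receptor genes 54.2% had a lower such difference than Ivl, so that its difference lay near the middle of theirs. Ivl averaged 310.4 ± 51.4 in gonadal males and 320.3 ± 10.04 in gonadal females (SD, n = 6 each). Its log2 difference by sex was -0.178 without XYM array 9 and 0.111 without XYM array 1.

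Krtdap, a secreted product of differentiating keratinocytes, had signals of 187.9 and 187.1 in XYM, 170.7, 156.0, 163.6 and 141.7 in XXM, 194.1, 133.5 and 161.9 in XYF and 162.5, 164.4 and 153.2 in XXF, below the reference on every array. Both XYM arrays lay above all XXM and XXF arrays, while the XYF arrays spanned the whole range. Its log2 difference by chromosome complement was 0.13 ± 0.09 (SE), at means of 172.9 ± 25.2 in XY (SD, n = 5) and 158.9 ± 9.50 in XX (SD, n = 7). With an adjusted limma p of 1.0 it did not pass, and XYF array 8 had the lowest signal of all.

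The first comparison asked whether gonadal sex changed the keratins of the epithelium that supports T cell development. By sex, 0 of the 10 members were called at an adjusted p under 0.05, where 0.00281% of all 35556 probe sets were called (1 probe set), and 0 had an unadjusted p under 0.05, against 3.03% of all probe sets. That share was 9.99% without XYM array 1, 5.16% without XXM array 2, 1.61% without XYM array 9 and 11.5% with array sets as a block, and the members counted were 1 without each of these arrays (Krt1 without XYM array 1 or XXM array 2, Ivl without XYM array 9) and 0 with the block. Log2 differences were above 0 for 4 members and below 0 for 6, with a median of -0.01 beside 0.00 over all probe sets. The 95% intervals of the male over female ratio, over the 10 members, reached no lower than 0.78 and no higher than 1.23. The exact permutation test over the 924 groupings of the 12 arrays gave two-sided p-values of 0.238 to 0.987. These p-values do not show that the sexes were alike, and the intervals say what size of difference the arrays left possible.

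By sex chromosome complement, 0 of the 10 were called, where 0.0366% of probe sets were called, and 1 (Krt19) had an unadjusted p under 0.05, against 2.55% (6.43% without XYM array 1, 4.13% without XXM array 10 and 6.90% with array sets as a block). The log2 difference of Krt19 by complement was -0.19, and -0.112 without XYM array 9 (unadjusted limma p of 0.2). Log2 differences of XY minus XX were above 0 for 7 members, with a median of 0.03 beside 0.01 over all probe sets, and the ratio bounds ran from 0.78 to 1.26. For the interaction of sex and complement 0 of 10 members and 0.0% of all probe sets were called, and 1 member (Krt19 again) had an unadjusted p under 0.05, against 1.54% (4.77% without XYM array 1 and 6.40% with the block). The F test over the 4 genotypes called 0 of the 10, where 0.0281% of probe sets were called, and gave Krt19 alone an unadjusted p under 0.05, against 1.99%. Between single genotypes 0 of the 10 were called in each of 4 comparisons, XXM minus XXF (0.00281% of all probe sets called), XYM minus XYF (0.00562%), XYF minus XXF (0.0169%) and XYM minus XXM (0.0197%).

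**Figure D2:**
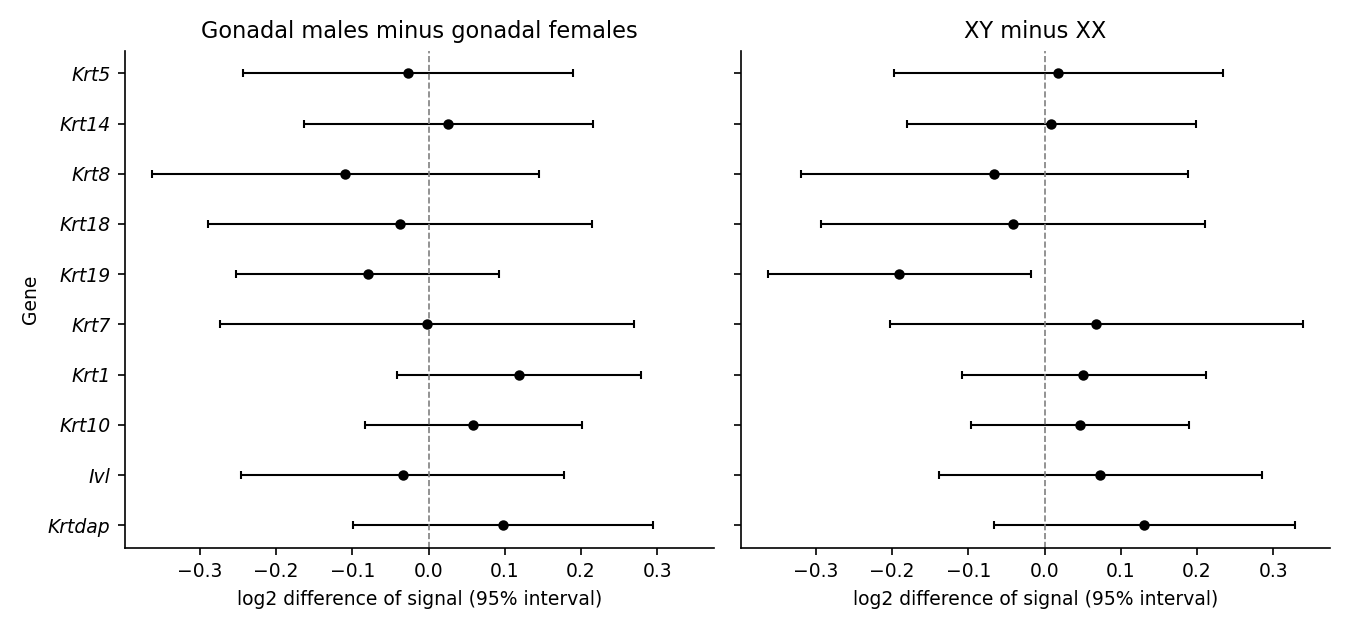
Log2 difference of signal of the 10 genes, gonadal males minus gonadal females (left) and XY minus XX (right). Points are limma estimates from 12 arrays and lines are 95% intervals; all intervals by sex cover 0, and by chromosome complement only that of Krt19 (log2 -0.36 to -0.02) does not, with an adjusted p of 1.0.

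Within array sets the male minus female log2 differences of the 10 members ran from -0.24 (Ivl, arrays 1 to 4) to 0.23 (Krt1, arrays 9 to 12), and those of XY minus XX from -0.30 (Krt19, arrays 5 to 8) to 0.24 (Krtdap, arrays 9 to 12). With array sets as a block limma called 0 of the 10 by sex, by complement or in the interaction. For Krt8 the male minus female log2 difference was -0.11 on arrays 1 to 4, 0.01 on arrays 5 to 8 and -0.18 on arrays 9 to 12. For Krt5 it was -0.09, -0.01 and 0.01 in the same order of array sets, and for Krt1 it was -0.02, 0.06 and 0.23. The difference of Krt1 therefore lay mainly in the array set that held XYM array 9.

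Krt19, the small type I keratin of simple epithelia, had the lowest unadjusted p by genotype among the members, 0.00437 in the limma F test (adjusted 1.0). It had signals of 201.9 and 162.2 in XYM, 162.7, 179.4, 167.2 and 162.6 in XXM, 147.5, 154.9 and 164.1 in XYF and 234.0, 232.6 and 191.0 in XXF. All of them lay below the reference. The 3 XXF arrays were above every XXM and XYF array, and XYM array 1 lay among them. XYF minus XXF gave a log2 difference of -0.49 ± 0.11 (SE; unadjusted limma p of 0.00077, adjusted 1.0), and XXM minus XXF one of -0.38 ± 0.10 (SE; unadjusted limma p of 0.00301, adjusted 1.0). The exact permutation p-values were 0.1 for XYF against XXF, the smallest that 20 groupings can give, and 0.0571 for XXM against XXF, the smallest that 35 can give. Between the males, XYM minus XXM was 0.11 ± 0.12 (SE). The interaction was 0.60 ± 0.16 on the log2 scale (SE; unadjusted limma p of 0.00274, adjusted 1.0), so that after adjustment over all probe sets the pattern did not pass.

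The gene whose signal was most like that of Krt19 over the 12 arrays, among the 11272 genes above the reference, was Upk3b, a uroplakin that marks mesothelium, at a Pearson r of 0.903 (0.901 with array set means subtracted). Next came Naca at 0.825 (0.842 after subtraction) and Igfbp6 at 0.814 (0.835). These genes were looked up after their values were seen, as was a list of 8 mesothelial markers (Upk3b, Upk1b, Msln, Lrrn4, Wt1, Muc16, Gpm6a and Bnc1), all measured and 3 of them above the reference. The list includes Upk3b, which was picked for its likeness to Krt19. The summed signal of the 8 was 2878 and 1973 in XYM, 1828, 2252, 2028 and 2297 in XXM, 1741, 2096 and 2100.1 in XYF and 3436, 3380.1 and 1997 in XXF. The 3 highest sums belonged to XXF arrays 3 and 7 and XYM array 1, which were also the 3 arrays with the highest Krt19 signal. Upk3b itself had 611.5 and 322.7 in XYM, 281.6, 406.7, 363.0 and 451.0 in XXM, 256.6, 379.3 and 373.4 in XYF and 803.2, 751.2 and 366.7 in XXF. The other markers above the reference followed Krt19 less closely, Msln at an r of 0.69 and Bnc1 at 0.50. Those with means below the reference were Upk1b (r of 0.93), Lrrn4 (0.90), Wt1 (0.85), Gpm6a (0.84) and Muc16 (0.72). No marker of the list was at 0, and its part in the Krt19 pattern was not tested. The mesothelium covers the organs of the chest cavity and expresses keratins of simple epithelia. In tissue of this kind fewer cells of a type and less RNA per cell cannot be told apart.

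**Figure D3:**
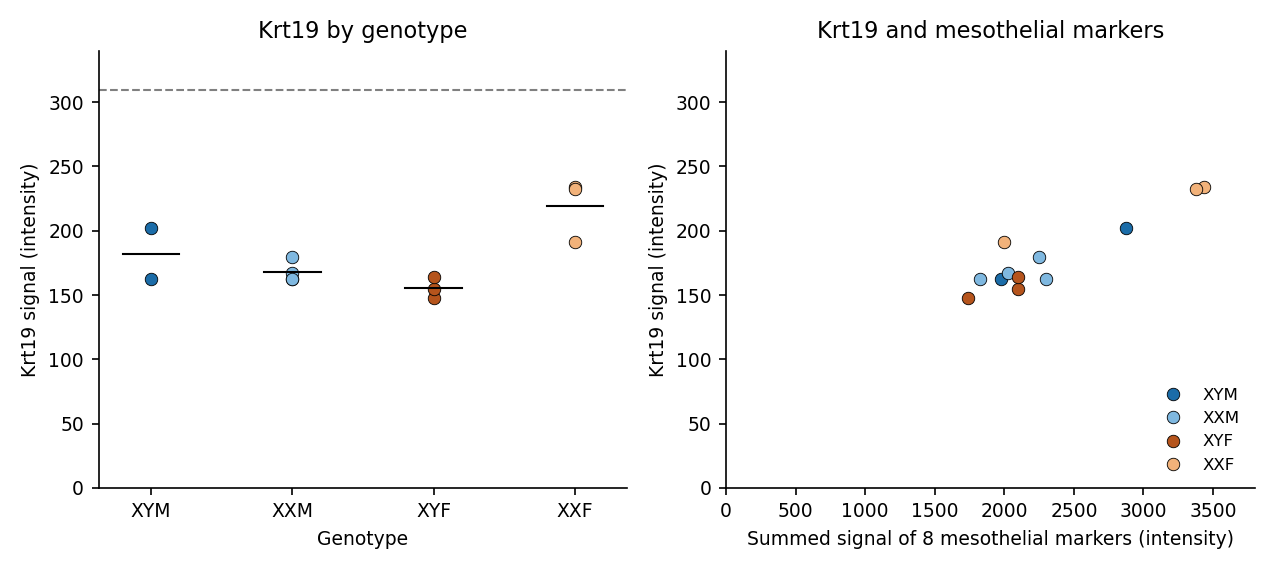
Krt19 signal (intensity) by genotype (left, points are arrays, bars are means, the dashed line is the reference of 309.5) and against the summed signal of 8 mesothelial markers (right, each point 1 array). XXF arrays 3 and 7 and XYM array 1 are highest on both axes, and XXF array 11, at a Krt19 signal of 191.0, has a sum of 1997.

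The filament pairs were compared next, over 12 arrays and 3 pairs. Krt8 and Krt18 had a Pearson r of 0.942 (permutation p of 2e-05, the smallest that 100000 resamples can give, adjusted over the 3 pairs 6e-05) and a Spearman rho of 0.944 (permutation p of 4e-05, adjusted 0.00012). The log2 ratio of the 2 signals had an SD of 0.064 over the arrays, against 0.192 for Krt8 and 0.183 for Krt18 alone. Because the array sets differ in both genes, r was also taken after the array set means were subtracted (0.799, permutation p of 0.00168, adjusted 0.00504). That permutation moved values across array sets and did not count the means removed, so its p is too small. On arrays 1 to 8 r was 0.864 (exact permutation p of 0.00357, adjusted 0.0107). Without the 2 arrays farthest from the median of Krt8 it was 0.914. Krt18 was the third most similar gene to Krt8 among 11271 genes above the reference, after Eif5b (translation initiation) at 0.954 and Nbn (DNA repair) at 0.945.

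Krt5 and Krt14 had a Pearson r of 0.78 (permutation p of 0.00298, adjusted 0.00447) and a Spearman rho of 0.86 (permutation p of 0.00044, adjusted 0.00066). With array set means subtracted r was 0.621, and without the 2 arrays farthest from the median 0.70. The permutation p after subtraction (0.0189, adjusted 0.0283) is again too small, because values moved across array sets. It cannot decide whether the pair passed within array sets. On arrays 1 to 8 r was 0.677 and no longer passed (exact permutation p of 0.0692, adjusted 0.104). Krt14 ranked 329th of the 11271 genes by likeness to Krt5, whose nearest genes were Sf3b6 (splicing, 0.963), Ing5 (chromatin, 0.956) and Zdhhc6 (a palmitoyltransferase, 0.95). Many genes thus followed the arrays as closely as the partner did. Krt1 and Krt10 had an r of 0.439 (permutation p of 0.156, adjusted 0.156) and a rho of 0.238 (permutation p of 0.455), with r at 0.469 after array set means were subtracted, -0.329 on arrays 1 to 8 and 0.022 without the 2 arrays farthest from the median. None of these passed, and the value changed with the arrays that entered. The genes nearest to Krt10 were Gnptg (lysosomal enzyme targeting, 0.947), Ndufa12 (respiratory complex I, 0.845) and Snord15a (a small nucleolar RNA, 0.83).

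**Figure D4:**
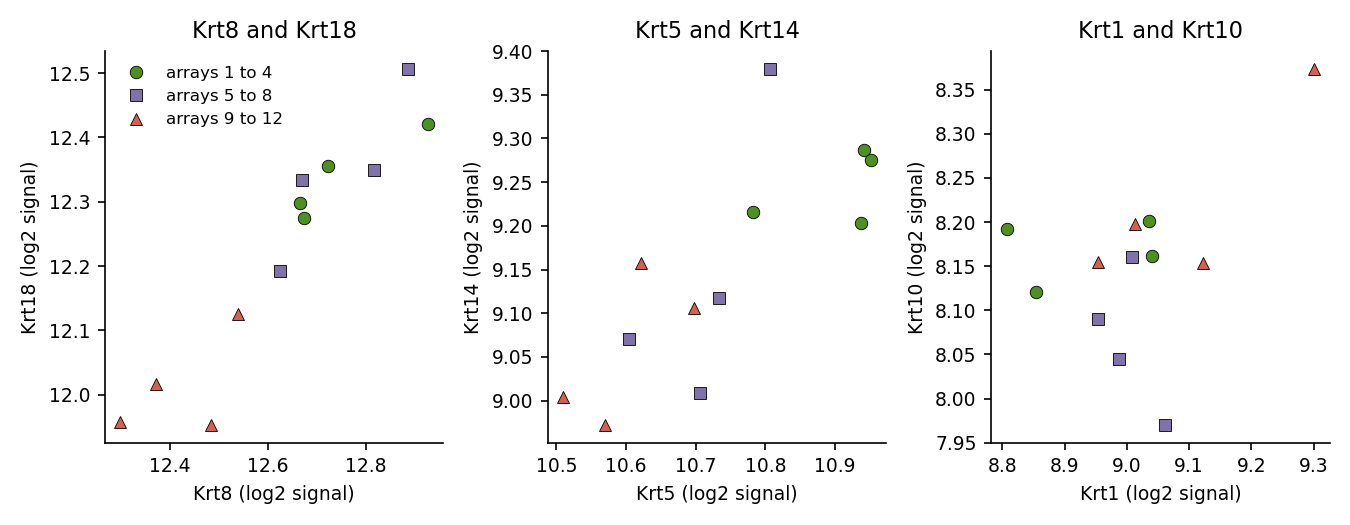
Log2 signal of each type I keratin (y axis) against its type II partner (x axis) on the 12 arrays, marked by array set. Krt8 and Krt18 lie close to a line (r = 0.942), Krt5 and Krt14 are looser (r = 0.78), and Krt1 and Krt10 show no such line (r = 0.439).

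Over all 45 pairs of members, described without a test, the highest values after that of Krt8 and Krt18 were those of Krt7 with Krt18 (0.90) and with Krt8 (0.88), which were 0.67 and 0.64 with array set means subtracted. Krt5 and Krt18 had 0.75 (0.67 after subtraction) and Krt5 and Krt8 0.70 (0.50), so that the basal and the simple pair shared the order of the arrays in part. Of the differentiation genes Krt1 and Ivl ran the other way, with Ivl and Krt7 at -0.56, Ivl and Krt18 at -0.56 and Krt1 and Krt5 at -0.51. After subtraction of array set means these were -0.07, 0.04 and -0.08, while Ivl and Krt5 had -0.44 as measured and 0.49 after subtraction. Krtdap had 0.50 with Krt5 and 0.49 with Krt14, and Krt10 had 0.14 with Krt5 and 0.15 with Krt14. Krt1 and Ivl had 0.73 (0.57 after subtraction), with XYM array 9 the highest for both. Ivl ranked 393rd of 11271 genes above the reference by likeness to Krt1. The summed markers of hair follicle and skin were also highest on XYM array 9, at 1839. The mean of their log2 signals had an r of 0.73 with Krt1 as well, but only 1 of these 8 markers lay above the reference. Its log2 difference of arrays 9 to 12 from arrays 1 to 8 was 0.23, beside a median of 0.20 over olfactory receptor genes. Krt19 had no value above 0.33 with any other member.

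**Figure D5:**
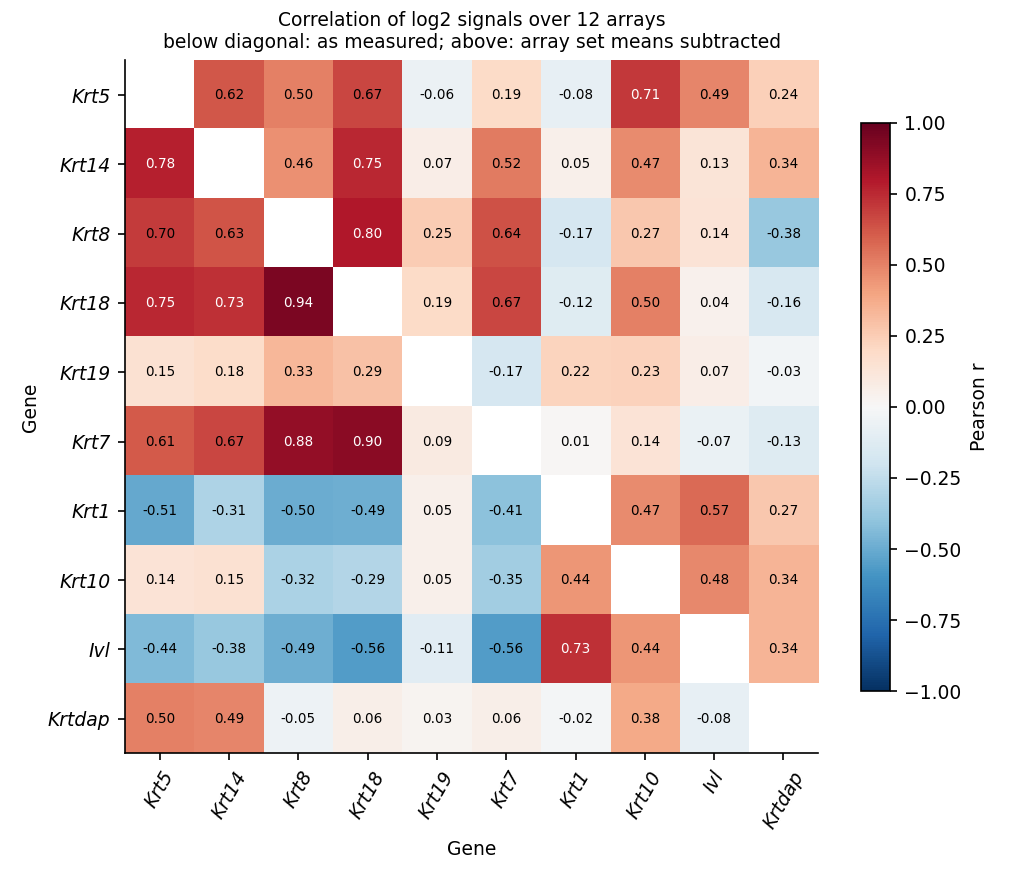
Pearson r of log2 signals between the 10 genes over 12 arrays, as measured (below the diagonal) and with array set means subtracted (above it). The block of Krt5, Krt14, Krt8, Krt18 and Krt7 is positive on both sides, and the values of Krt1 and Ivl with these 5 keratins, -0.56 to -0.31 below the diagonal, run from -0.17 to 0.49 above it.

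The rest of the keratin family was read from lists chosen by name. Of 19 other epithelial keratins 3 had a mean above the reference, and 0 were called by sex and 0 by chromosome complement, and 0 in both at an unadjusted limma p under 0.05. The 3 were Krt17, a type I keratin of basal and appendage cells, Krt78 and Krt12. Krt17 had 1779 ± 281 in gonadal males and 1813 ± 301 in gonadal females (SD, n = 6 each), a log2 difference of -0.03 ± 0.14 (SE; adjusted limma p of 0.993). Looked up after its values were seen, Krt17 was also the gene most like Krt18 over the arrays, at an r of 0.976 (0.902 with array set means subtracted). Krt78 averaged 330.4 ± 44.2 in gonadal males and 312.6 ± 25.6 in gonadal females and Krt12 321.7 ± 32.5 in gonadal males and 312.7 ± 20.9 in gonadal females (SD, n = 6 each), both little above the reference. The list had 17 members with a higher and 2 with a lower male mean on the log2 scale, at a median log2 difference of 0.07 beside 0.00 over all probe sets, and most of its members lay below the reference.

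Of 25 keratins and proteins of hair and its sheath 22 were measured and 3 lay above the reference, Krt33b, Krt82 and Krt34, hard keratins of the hair shaft. Krt33b had 803.4 ± 91.6 in gonadal males and 776.4 ± 73.7 in gonadal females (SD, n = 6 each). Of the 22, 0 were called by sex and 1, Krt75 of the hair sheath, had an unadjusted p of 0.0322 (adjusted limma p of 0.985), at 212.5 ± 16.8 in gonadal males and 189.3 ± 12.5 in gonadal females (SD, n = 6 each), below the reference. Trichohyalin (Tchh), the protein of the inner root sheath, had a mean of 162.7 and loricrin (Lor), the main envelope protein of skin, one of 132.0, both below the reference. Of the 8 measured markers of hair follicle and skin 1, Krtap3-1 (mean 538.7), lay above it, and the summed signal was 1359 to 1839 in gonadal males and 1331 to 1680.0 in gonadal females.

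Among the cornified envelope proteins and the enzymes that build them 38 of 41 genes were measured and 12 lay above the reference, with 0 called by sex and 0 by chromosome complement, and 1 and 0 at an unadjusted limma p under 0.05. Ly6d, a surface protein of stratified epithelium that is also present on lymphoid cells, had 1642 ± 244 in gonadal males and 1753 ± 203 in gonadal females (SD, n = 6 each), a log2 difference of -0.13 ± 0.11 (SE; adjusted limma p of 0.985). Of the small proline-rich envelope precursors, Sprr4 had 696.2 ± 71.2 in gonadal males and 661.4 ± 40.7 in gonadal females, and Sprr1a had 431.1 ± 76.7 in gonadal males and 470.5 ± 45.5 in gonadal females (SD, n = 6 each). Tgm1, the transglutaminase that cross-links the envelope, had 341.6 ± 36.0 in gonadal males and 337.5 ± 28.3 in gonadal females (SD, n = 6 each), and by complement 357.2 ± 23.7 in XY (SD, n = 5) and 327.0 ± 30.7 in XX (SD, n = 7; adjusted limma p of 1.0). Cdsn, the corneodesmosome protein corneodesmosin, had the lowest unadjusted p by sex of the list, 0.0261 (adjusted limma p of 0.985), at 349.0 ± 40.2 in gonadal males and 308.3 ± 21.2 in gonadal females (SD, n = 6 each). The list had a median log2 difference of 0.14 between arrays 9 to 12 and arrays 1 to 8, beside 0.15 over all genes at or below the reference, where most of its members lay. Krt1 had 0.13, Krt10 0.10, Ivl 0.21 and Krtdap -0.05.

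The transcription factors of epithelia were measured for 18 of 19 genes, 9 of them above the reference, and 0 were called by sex or by complement, with 0 by sex and 1 by complement at an unadjusted limma p under 0.05. Foxn1, which directs thymic epithelial differentiation, had 1307 ± 121 in gonadal males and 1411 ± 113 in gonadal females, and Trp63, the p63 factor of stratified and thymic epithelium, 961.6 ± 76.9 in gonadal males and 995.3 ± 91.7 in gonadal females (SD, n = 6 each). Klf4, a factor of epidermal differentiation, had the lowest unadjusted p by complement of the list, 0.0158 (adjusted limma p of 1.0), at 339.4 ± 32.3 in XY (SD, n = 5) and 302.6 ± 21.9 in XX (SD, n = 7), just above and just below the reference. Over the arrays Trp63 had an r of 0.86 with Krt8 (0.57 with array set means subtracted), and Foxn1 one of 0.07 (0.65 after subtraction).

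Of the desmosome proteins and other anchors of keratin 13 of 14 were measured and 11 lay above the reference, again with 0 called by sex or by complement, and 0 at an unadjusted limma p under 0.05. Desmoplakin (Dsp), which ties keratin filaments to desmosomes, had 3482 ± 384 in gonadal males and 3613 ± 421 in gonadal females (SD, n = 6 each) and an r of 0.86 with Krt8 over the arrays (0.58 with array set means subtracted). Plectin (Plec), dystonin (Dst) and plakoglobin (Jup), linkers of filaments to junctions, had adjusted limma p-values of 0.985 to 0.995 by sex. Their r with Krt8 was lower than that of Dsp, at 0.06, 0.28 and 0.28 (0.46, 0.45 and 0.33 after subtraction). Eppk1 had an r of -0.42 (-0.49 after subtraction). Pkp2 and Dsg3, both below the reference, had -0.61 and 0.22 (-0.59 and -0.40). The list had a median log2 difference of -0.13 between arrays 9 to 12 and arrays 1 to 8, beside -0.05 over all genes above the reference.

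The markers of the cells in the tissue stand beside these values. Of the 9 measured epithelial markers 7 lay above the reference, and their sum was 6452 to 7883 in gonadal males and 6847 to 7540 in gonadal females. All 10 cortical markers lay above it, with sums of 29678 to 35466 in gonadal males and 32380 to 36822 in gonadal females, and the log2 difference of arrays 9 to 12 from arrays 1 to 8 in their mean was -0.11. Ctsl, the cathepsin of cortical epithelium, was named after its values were seen, as the 1 of the 10 with no overlap between arrays 9 to 12 (5388 to 6181) and arrays 1 to 8 (6840.1 to 7565). The other 9 overlapped, and Foxn1 had 1298 to 1594 on arrays 9 to 12 and 1101 to 1463 on arrays 1 to 8. Outside the cortical list, Cdh1 of the epithelial markers did not overlap either (1152 to 1321 against 1430 to 1688). In the other direction, overlap was lacking for Siglech (306.9 to 314.7 against 236.3 to 303.6) and Ighm (463.5 to 532.8 against 384.1 to 448.7). How many of all genes lacked overlap between these arrays was not counted. Of 8 measured medullary markers 6 lay above the reference, at sums of 3546 to 4743 in gonadal males and 3847 to 4689 in gonadal females. Despite the washing all 14 measured thymocyte markers lay above it, with sums of 41891 to 46921 in gonadal males and 41740 to 47993 in gonadal females. The thymocyte sums were 41740 to 42915 on XY arrays and 43265 to 47993 on XX arrays. They did not overlap, but this split was picked after its values were seen and was not tested. The share of all genes that separate the 2 complements in this way was not counted. No marker of these lists was at 0, and their part in the keratin signals was not tested.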

How the data were processed

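Thymic epithelium/stroma of day 7 FCG pups was measured on 12 Affymetrix mouse Gene 1.0 ST arrays, grouped by the labels. The authors deposited linear intensity values for 35556 probe sets, 1 column for each array, with 0 columns left without a sample. PLIER and Affymetrix Expression Console 1.1 stand in the submitters' processing notes, whereas the methods of the paper give RMA with quantile normalization. Which of them made the deposited values is not settled, and they were used as deposited.

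The array annotation gave the gene names, checked against RefSeq (GRCm38.p6). It gave 1 symbol for 21789 probe sets, more than 1 for 1621 and no symbol for 12146. Genes were named only where a probe set had 1 symbol, and the brightest such probe set stood for the gene. Keratins are similar in sequence, and cross-hybridization between them was not tested. Names withheld for other uses are not reported here.

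Values were log2 transformed and fitted to 4 genotype means (lmFit and eBayes of limma 3.58.1, under R 4.3.3), with a common spread since XYM had only 2 arrays. The Benjamini-Hochberg adjustment ran over all 35556 probe sets, with a threshold of 0.05, and the methods' two-way ANOVA was an alternative. Means ± SD are on the linear scale and pool all arrays of a sex or complement. The log2 differences of the fit by sex and complement instead averaged the 2 genotype means of each side with equal weight. They are therefore not the log2 ratio of the printed means and can differ from it in sign. Each XYM array weighed more in them than any other array. Permutation tests of single genes were exact and two-sided, over all groupings, and correlations over 12 arrays used 100000 resamples. Array sets were subtracted, blocked or left out as alternatives, beside normalization, offset, filters, weights and each array left out. The limma fit by sex was tested on simulated data. Figures were drawn with matplotlib 3.10.9.

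The members and the gene lists were chosen with earlier results of these data known. The text names all 10 members. From each list it names only genes among up to 3 with the lowest unadjusted p by sex, up to 3 by complement and up to 4 with the highest signal. For Krt5, Krt8 and Krt10 it names the 3 most similar genes above the reference. Krt17, Upk3b, Naca and Igfbp6 as nearest genes and the mesothelial list were chosen after their values were seen. Tchh, Lor, Krtap3-1, Ctsl, Cdh1, Siglech, Ighm, Actn2 and the other single muscle markers were also chosen after their values were seen. So was the split of the thymocyte sums by complement.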

Additional observations from a re-analysis of the deposited data

How the results depend on the processing

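At an adjusted p under 0.05, 0 of the 10 members were called by sex, by chromosome complement or in their interaction under each alternative that tested all 10, the two-way ANOVA of the methods and each left-out array included. The filters on low signal tested fewer, 8 at a mean signal of at least 200 and 7 above the olfactory receptor reference, also with 0 called, and left out Krt19. Counts at an unadjusted p moved by 1 or 2 members, with 1 to 3 members for the interaction when an array was left out. Because the differences were small, several changed sign. Renewed quantile normalization gave log2 differences by sex of 0.007 for Krt18 and 0.019 for Krt7, one by complement of 0.005 for Krt18 and an interaction of 0.016 for Krt14. For Krt7 by sex the value was 0.009 with array weights, 0.013 with array sets as a block, 0.014 in an additive model and 0.002 in a model with 1 factor. Array weights gave -0.033 for Krt14 by complement, and array sets as a block gave 0.0 for Krt18 by complement and an interaction of -0.005 for Krt5. When each array was left out in turn, the log2 difference by sex ran from -0.072 to 0.021 for Krt5, -0.012 to 0.067 for Krt14, -0.108 to 0.033 for Krt18, -0.118 to 0.115 for Krt7 and -0.178 to 0.111 for Ivl. By complement it ran from -0.03 to 0.066 for Krt5, -0.029 to 0.049 for Krt14, -0.139 to 0.007 for Krt8, -0.112 to 0.029 for Krt18, -0.049 to 0.184 for Krt7, -0.014 to 0.117 for Krt1, -0.007 to 0.1 for Krt10 and -0.071 to 0.217 for Ivl. The interaction ran from -0.083 to 0.11 for Krt5, -0.106 to 0.051 for Krt14, -0.243 to 0.049 for Krt8, -0.25 to 0.032 for Krt18, -0.414 to 0.052 for Krt7 and -0.119 to 0.459 for Ivl. The causes of these changes were not tested. The interaction of Krt19 kept its sign wherever it was tested, between 0.44 and 0.76. The count of probe sets called by complement was 13, and 8 in the two-way ANOVA. By sex 1 probe set was called, and 2 with trend and robust moderation, and up to 4 with an array left out. On arrays 1 to 8, r of Krt5 and Krt14 was 0.677 and no longer passed, with fewer arrays in the test, and r of Krt1 and Krt10 was -0.329. No paired analysis was possible because the replicate numbers are the array numbers, which no 2 groups share. Signals near or below the olfactory receptor reference, those of Ivl, Krt10, Krt19 and Krtdap, could not be told from background by that reference. Those of Krt1 and Krt14 lay above it but overlapped the Sry signals of gonadal females, which lack Sry.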

Other observations

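Other cells of the tissue had marker signals that overlapped between the sexes. The summed signal of 10 mesenchymal markers was 11433 to 16932 in gonadal males and 11433 to 16865 in gonadal females, and that of 10 endothelial markers 9598 to 11861 in gonadal males and 9882 to 13667 in gonadal females. Skeletal muscle markers summed to 1838 to 6403 in gonadal males and 2009 to 2558 in gonadal females. Here 3 XXM arrays lay above every female array, array 10 at 6403, array 6 at 4649 and array 5 at 2729. Actn2, an actin-binding protein of the muscle Z disc, reached 2539 on arrays 9 to 12 beside a mean of 569.7 over the 12 arrays. On arrays 9 to 12 Ttn reached 1923, Ckm 694.8, Myh3 158.7 and Myog 150.2. Acta1, Tnnt3 and Myh8 reached 562.4, 407.0 and 235.4 there, and more on arrays 1 to 8 (1623, 484.3 and 343.5). The markers of this list thus did not rise on the same arrays. The erythroid list had 4 of 8 markers measured and 0 above the olfactory receptor reference.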
